A study of Homo sapiens with 6 samples.

Results

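HSC-3 is an established human cell line grown from an oral squamous cell carcinoma (OSCC), and it was compared here with KON and Ca9-22, 2 further OSCC lines. Its members are 2 of the 6 arrays of the series, one of cells given a control siRNA (siCtrl) and one of cells given siDLEU1-2, an siRNA against the long noncoding RNA DLEU1. The other 4 arrays held KON and Ca9-22, each with the same pair of siRNAs. All cells were transfected with a lipid reagent in RPMI1640 medium with serum, and total RNA was taken 72 h later. Each line is therefore 1 culture per siRNA, and no group holds untransfected cells. The arrays were Agilent one-colour arrays with 50599 probes. A level below is the log2 processed signal of a probe minus the 75th percentile of its array, so a level of 0 lies at that percentile and a difference of 1 is 2-fold. Levels of different genes come from different probes, so differences were taken only between arrays, while sums over marker lists and the choice of list members by level take each probe's signal as it stands.

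Squamous cell carcinoma lines keep much of the program of the oral epithelium, with basal keratins, desmosomes and the transcription factor p63. Lines of this one tumour type differ in how far they turn on late differentiation genes, mesenchymal genes, inflammatory cytokines, interferon-induced genes and position-coding HOX genes.

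DLEU1 itself read 1.39 on siCtrl and -2.71 on siDLEU1-2 in HSC-3, while KON gave 2.16 and -1.48 and Ca9-22 gave 1.56 and -1.88. It was low on the siDLEU1-2 array of every line, as the labels state. HSC-3 did not pass the test against the other lines for DLEU1 (difference -0.75 ± 0.32 SE, limma adjusted p = 0.256). The 75th percentile of the processed signal was 218 and 200 in HSC-3 and 243 to 257 on the other arrays, and 43.0% to 45.7% of probes were well above background on each array. All 6 arrays lay on 1 slide, HSC-3 and KON in its row 1 and Ca9-22 in its row 2, so line and position on the slide cannot be told apart.

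The genes that set HSC-3 apart most were read by probes of 60 bases. The first 30 bases of 5 such probes, 5′ to 3′, show what was read in 3 of the genes highest in HSC-3, in COL4A2, low in HSC-3, and in its partner chain COL4A1. They come from the deposited files, which place them on hg19: CCND2 at chr12:4414040-4414099 on the plus strand, SPARC at chr5:151041040-151041099 on the minus strand, S100A7 at chr1:153430429-153431390 on the minus strand, COL4A2 at chr13:111165261-111165320 on the plus strand and COL4A1 at chr13:110802347-110802406 on the minus strand. Their place within exons was not determined here.
CCND2: atcgggccattggattttttccattatgtt
SPARC: ccacatacctagatctccagatgtcatttc
S100A7: acgatgatgaaggagaacttccccaacttc
COL4A2: ccacgttgtccctgagatttaacccctcca
COL4A1: aaagggtgctaggaggtgtgggtgccttcc

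HSC-3 stood about as far from each of the other lines as these stood from each other. On siCtrl, over 24517 probes well above background on at least 2 arrays, Pearson's r was 0.879 between HSC-3 and KON, 0.875 between HSC-3 and Ca9-22, and 0.858 between KON and Ca9-22, while the 2 HSC-3 arrays correlated at 0.959. They run across probes, which do not count as independent replicates. HSC-3 differed over 2-fold from KON at 33.5% of the probes and from Ca9-22 at 34.6%, against 17.1% between its own siCtrl and siDLEU1-2 arrays. On siDLEU1-2 these shares were 38.6% and 37.5%, and KON and Ca9-22 differed at 35.5%.

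On both siRNAs, HSC-3 lay over 2-fold above all 4 other arrays at 813 of 24517 probes (3.32%) and over 2-fold below all of them at 911 (3.72%). Counted in the same way, KON lay above at 4.32% and below at 2.76%, and Ca9-22 above at 3.92% and below at 4%. With this centring HSC-3 thus had the smallest share above and, for the share below, lay between the other lines. Centred on the median, HSC-3 lay above at 1007 probes and below at 784. Centred on probes detected on all arrays, it lay above at 662 and below at 1099. The balance of above and below therefore depended on the scaling, and KON and Ca9-22 were not counted under these. In RNA of whole cultures, fewer cells of a kind and less RNA per cell cannot be told apart. limma, with the siRNA as a term, called 293 probes higher in HSC-3 (1.2%) and 339 lower (1.38%) at an adjusted p below 0.05. Of the probes over 2-fold apart, 269 of those above and 315 of those below were among these calls. HSC-3 was the one line with signal well above background at 343 probes, of which 216 lay over 2-fold above and 140 were called. Those probes entered the test only through HSC-3 and so had to differ, as did the 428 probes seen on all other arrays and not in HSC-3.

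The test sets 1 line against 2, and the spread it uses is that between KON and Ca9-22 together with that between cultures, so its p-values measure only the spread among these 6 arrays. With any 1 array left out limma called 0 probes higher and 0 lower, although 829 to 2644 were higher and 940 to 2448 lower at an unadjusted p below 0.05. With the cell line as a random block it also called 0 in each direction (984 and 1073 at an unadjusted p below 0.05). No call below therefore held with any 1 array left out. With KON or Ca9-22 left out whole, the 60 called genes that were followed through the alternatives stayed called, in a fit of 2 lines whose spread is that within lines. Those genes had been chosen as called and apart in these same data. Without KON such a fit called 3272 probes higher and 2938 lower, and without Ca9-22 3102 and 3494. Staying called there lends no support. An exact permutation test over 15 splits of the arrays cannot go below p = 0.0667 and was not used for single genes.

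A choice by fold on the siCtrl arrays was read again on the siDLEU1-2 arrays, which held other cultures of the same lines. The filter on dim probes used arrays of both siRNAs, so the choice was not free of the siDLEU1-2 arrays. That filter admitted 343 probes well above background on both HSC-3 arrays and on no other array. It also admitted 428 seen on all other arrays and on no HSC-3 array. Such probes were prone to repeat. HSC-3 was over 2-fold above both other lines at 1848 probes on siCtrl, and 1259 of these (68.1%) were over 2-fold above on siDLEU1-2 too, against 9.25% of all probes. HSC-3 was over 2-fold below at 1879 probes on siCtrl, and 1272 (67.7%) were so on siDLEU1-2, against 9.59% of all probes. The shares of all probes include the kept probes themselves. For both directions together the kept share was 67.9%. It was 61.9% with the filter of at least 1 array and 52.2% with no filter. With signal well above background required on every array it was 68.4%. The repeat covers these lines only. The difference of HSC-3 to the other lines did not pass the test for a change between siRNAs at any probe (limma interaction, 0 calls, 136 at an unadjusted p below 0.05). A missed threshold does not show that the differences were equal.

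**Figure D1:**
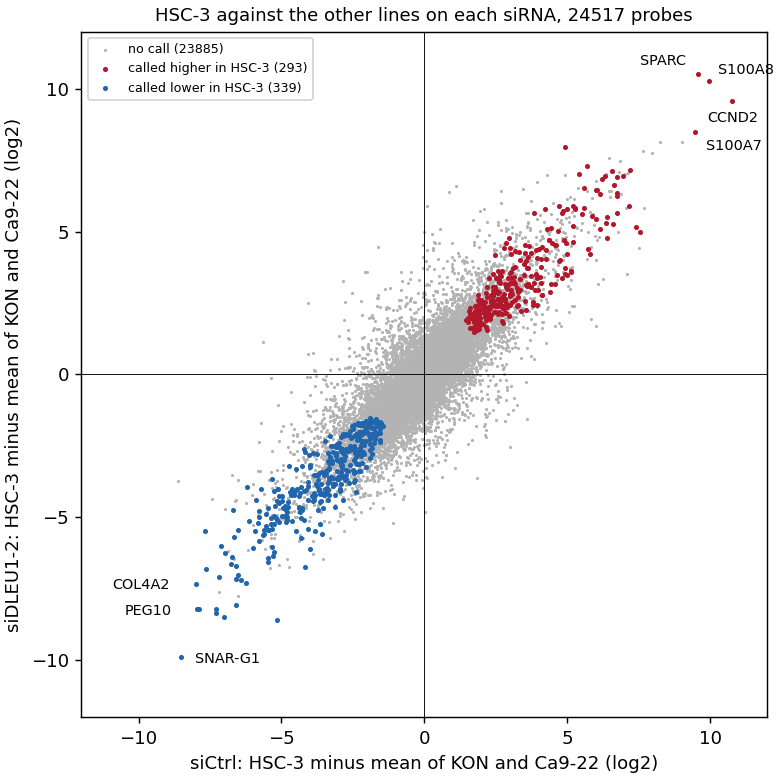
Difference of HSC-3 to the mean of KON and Ca9-22 for 24517 probes, on siCtrl (horizontal axis, log2) and on siDLEU1-2 (vertical axis, log2), with probes called higher in red, called lower in blue and the rest in grey. CCND2, SPARC, S100A8 and S100A7 lie at the upper right end and COL4A2, PEG10 and SNAR-G1 at the lower left end, and the called probes lie on the same side of 0 on both siRNAs.

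By gene, each taken at its tested probe of highest mean level, HSC-3 was called higher at 173 of 14211 genes (1.22%) and lower at 204 (1.44%), and lay over 2-fold above all other arrays at 485 (3.41%) and below at 494 (3.48%). The median difference over all genes was 0.09. The 15 genes that stood highest and the 15 that stood lowest, by the gap between HSC-3 and the nearest other array, are described next. Where all arrays on the low side were not well above background, the fold is a lower bound, the mean level of the bright group over the mean, per array, of the lowest signal that was well above background, or of the probe's own signal where that was higher. The adjusted p beside a bound is that of the fit on the signals as measured. With signals not well above background raised to that limit before the fit, 7 of the 60 genes followed were no longer called, namely ARHGEF26, CLDN3, CCN2, CCL2, HOXD9, HOXD11 and ID2. Normexp background correction also ended the calls of these 7, and of AFAP1-AS1, SNAR-G1, PTX3, SLITRK6, ZEB1, CCL5, HOXA13, IRX5, NR2F1, HEY1 and FOXF2.

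CCND2, which encodes cyclin D2, a partner of CDK4 and CDK6 in G1, had the widest gap. It read 5.19 on siCtrl and 4.24 on siDLEU1-2 in HSC-3, against -5.79 and -5.45 for KON and -5.40 and -5.22 for Ca9-22. Only the HSC-3 arrays had signal well above background, and CCND2 was at least 302-fold higher there (fitted difference 10.18 ± 0.37 SE, limma adjusted p = 0.00981). SPARC, a matrix glycoprotein usually made by mesenchymal cells, read 3.75 and 5.51 in HSC-3 but -6.02 and -5.71 in the KON arrays and -5.63 and -4.29 in the Ca9-22 arrays. It too was seen in HSC-3 alone, at least 284-fold higher (10.04 ± 0.51, adjusted p = 0.0127).

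S100A7 and S100A8 encode small calcium-binding proteins of inflamed squamous epithelium. S100A7 read 5.38 and 4.21 in HSC-3, while KON gave -3.14 and -3.63 and Ca9-22 gave -5.03 and -4.93 (difference 8.98 ± 0.72, adjusted p = 0.0204). S100A8 read 7.78 and 6.01 in HSC-3, against 0.15 and -3.26 for KON and -4.52 and -5.25 for Ca9-22 (10.12 ± 1.44, adjusted p = 0.0476). Each lay far above the other lines on both siRNAs, and each had signal well above background on 1 KON array and on no Ca9-22 array. Both genes thus reached the filter of at least 2 arrays only with HSC-3, so their calls lend no support. With the dim signals raised to the background limit the differences were 8.14 and 9.36. The S100A8 call was lost under quantile normalization (adjusted p = 0.0531).

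The other 11 genes of the highest 15 were well above background on both HSC-3 arrays and on no other array. NLRP2, an inflammasome-related NOD-like receptor, was at least 33.4-fold higher in HSC-3, and QPCT, which encodes glutaminyl cyclase, at least 37.4-fold. A second QPCT probe ran the same way. CA9, the cell-surface carbonic anhydrase known as a hypoxia target, was at least 23.8-fold higher. SMO, the transducer of Hedgehog signals, read 1.89 and 0.97 in HSC-3 and between -4.68 and -4.41 on the other arrays, at least 31.0-fold higher. CHFR, a mitotic checkpoint ubiquitin ligase, read 0.45 and 0.93 in HSC-3 and between -5.61 and -5.43 elsewhere, at least 18.5-fold higher. These bounds hold for the processed signal, and under normexp the CHFR difference was 2.63 (log2). The remaining genes were ERICH5 (at least 23.8-fold), FILIP1L (20.9-fold), PHYHD1 (12.7-fold), FGL1 (21.8-fold), TNFSF12 (12.7-fold), which encodes the cytokine TWEAK, and the antisense RNA AFAP1-AS1 (19.0-fold). These 11 genes, like CCND2 and SPARC, entered the test only through HSC-3, so their calls lend no support. The same holds for S100A12, TWIST2, COL13A1, CCL2, HOXD9 and HOXD11 below. S100A7 and S100A8 above, and HOXD10 below, also reached the filter only with the HSC-3 arrays.

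COL4A2, the alpha2 chain of the type IV collagen of basement membranes, headed the genes low in HSC-3. It read -1.95 and -1.48 in HSC-3 but 6.18 and 5.91 in the KON arrays and 5.94 and 5.80 in the Ca9-22 arrays. No array fell below the background limit. The difference was -7.67 ± 0.28 (adjusted p = 0.00981), a 204-fold lower signal. COL4A1, the partner chain, read -3.90 and -1.75 in HSC-3, while KON gave 2.84 and 2.88 and Ca9-22 gave 2.78 and 3.10 (difference -5.73 ± 0.50, adjusted p = 0.0248). For both chains KON and Ca9-22 lay close together and HSC-3 far below.

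COL4A1 and COL4A2 lie head to head on chromosome 13 and are transcribed in opposite directions from one short stretch, which is shown because the signal of both genes was low in HSC-3. The 126 bases between the annotated starts, from RefSeq on GRCh38.p14 at chr13:110307158-110307283, plus strand, hold 20 CpG dinucleotides. Capitals mark the matches to GGGCGG and CCAAT, searched on both strands with no overlap between them.
COL4A1 to COL4A2: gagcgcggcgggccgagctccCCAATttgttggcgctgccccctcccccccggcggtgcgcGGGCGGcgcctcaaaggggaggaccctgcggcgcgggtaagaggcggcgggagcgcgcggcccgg
In the 126 bases before the start of 35116 RefSeq promoters, GGGCGG occurred in 34.6%, CCAAT in 21.1% and TATAAA, which is not in these letters, in 5.87%.

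DNAJA4, a heat shock protein cochaperone, read -4.32 and -5.68 in HSC-3 and between 2.49 and 3.18 on the other arrays, and was at least 85.0-fold lower. PEG10, an imprinted gene of retrotransposon origin, read -5.68 and -4.88 in HSC-3, against 1.31 and 2.95 for KON and 3.22 and 3.71 for Ca9-22, at least 83.6-fold lower. SYK, a tyrosine kinase of immune receptor signalling that epithelial cells also express, read -3.67 and -4.74 in HSC-3 and between 2.18 and 3.27 elsewhere, at least 76.6-fold lower. For all of these both HSC-3 arrays were below the background limit, and any gene so placed entered the test only through the other lines, so that its call lends no support either. FKBP10, a chaperone of collagen folding, had a signal at least 72.1-fold lower in HSC-3, PTX3, a secreted pattern-recognition protein, at least 32.1-fold, and DAB2, an endocytic adaptor, at least 26.2-fold.

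LCP1, which encodes the actin-bundling protein plastin 2, was measured on every array, at 1.29 and 1.57 in HSC-3 but 7.13 and 6.94 in the KON arrays and 6.52 and 6.77 in the Ca9-22 arrays (difference -5.41 ± 0.29, adjusted p = 0.0129). SLITRK6, a transmembrane protein, read -3.24 and -2.64 in HSC-3, while KON gave 4.55 and 4.53 and Ca9-22 gave 2.40 and 2.99 (-6.56 ± 0.78, adjusted p = 0.0363). Neither gene overlapped between HSC-3 and the other lines, as the choice by gap required. The rest of the lowest 15 were below the background limit in HSC-3, namely GNAS-AS1 (at least 23.8-fold lower), the adhesion molecule gene NECTIN3 (15.3-fold), the folate enzyme gene ALDH1L1 (17.4-fold), CECR7 (11.2-fold), ARHGEF26 (14.4-fold, adjusted p = 0.0363, and 0.0686 at the background limit) and SNAR-G1 (279-fold). SNAR-G1 belongs to a family of near-identical noncoding RNA genes, so its probe may read other copies. Of the genes named in the report as called and apart, 11 had 12 further probes in the test, and none of these ran the other way. The further probes of ARHGEF26, ID2, MLLT3, SLITRK6, TBX1 and TFAP2A, and 1 of 2 for GNAS-AS1, were not called. The further CECR7 probe was well above background on both HSC-3 arrays and differed by only -1.92 (log2). The uncalled GNAS-AS1 probe differed by -1.99. Both differences are smaller than the bounds printed for these genes, which hold for the probe of highest level only.

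**Figure D2:**
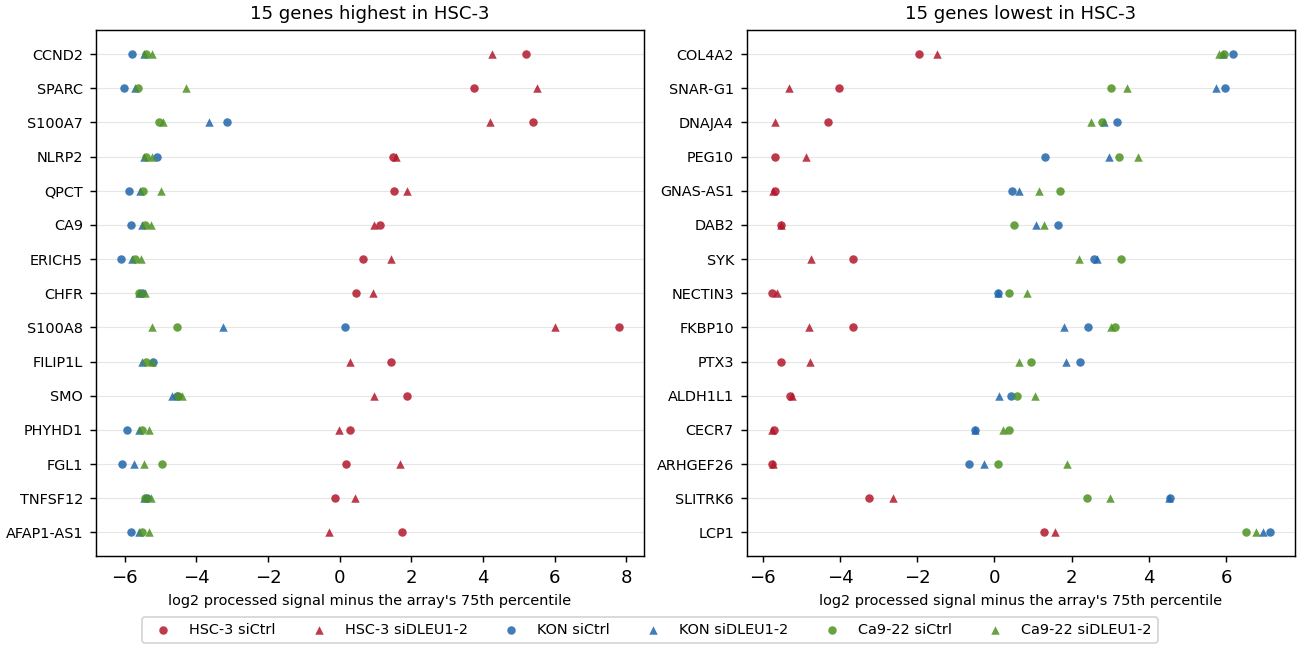
Level of the 15 genes highest (left) and 15 lowest (right) in HSC-3 on each of the 6 arrays, as log2 processed signal minus the 75th percentile of the array; colours mark the line, circles siCtrl and triangles siDLEU1-2. The red HSC-3 points stand apart from all 4 others in every row, by 4.95 or more, and the genes were chosen by that gap.

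The squamous identity in the labels was checked against 22 basal keratinocyte markers. All 22 were well above background on both HSC-3 arrays. KRT5, KRT14 and TP63, named after their values were seen, are the defining genes of the list. KRT5 read 7.72 and 6.40 in HSC-3, against 5.95 and 5.74 for KON and 5.83 and 3.94 for Ca9-22, and TP63, the p63 gene, read 0.77 and -1.61, with -0.15 and -2.50 for KON and -0.40 and -3.08 for Ca9-22. HSC-3 lay above both lines on the same siRNA for both genes, and KRT14 had a difference of 2.02. None of the 22 was called, where 1.22% of all genes were called higher and 1.44% lower. None was over 2-fold apart, where 3.41% of all genes lay above and 3.48% below. Their median difference was 1.15, against 0.09 over all genes. The 4 markers of highest level, S100A2, SFN, LAMB3 and PERP, had differences of 0.74, 1.18, 0.24 and 0.90, and the desmosomal cadherin DSG3, at -1.60, was the lowest member. On all 4 arrays of KON and Ca9-22, 19 of the 22 were well above background as well.

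Among 11 genes of simple epithelium, HSC-3 was called lower at CLDN3, a tight junction claudin, which read -4.98 and -3.66 in HSC-3 and between -1.12 and 2.49 elsewhere (at least 20.0-fold lower, adjusted p = 0.0310, and 0.0704 at the background limit, where the call was lost). KRT19, a keratin of simple and basal epithelium, read 9.61 and 9.65 in HSC-3 but -2.50 and -0.38 in the KON arrays and 7.59 and 8.02 in the Ca9-22 arrays. It lay over 2-fold above both lines, but they differed so much that it was not called (adjusted p = 0.358). KRT18 and EPCAM had differences of 1.15 and -0.68. In 38 genes of epithelial junctions and identity, 0 were called in either direction. GRHL1, an epidermal transcription factor, was the one member over 2-fold above (difference 1.29, adjusted p = 0.0720), and the tight junction gene MARVELD3 the one over 2-fold below (-1.81, adjusted p = 0.0539), where 3.41% and 3.48% of all genes lay above and below. CLDN3 was 1 call of 11, where 1.44% of all genes were called lower. SPINT2, CLDN4, PKP3 and PRSS8, the members of highest level, had differences of 0.71, -1.90, 0.36 and 0.74.

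Late squamous differentiation genes were called higher at 4 of 28 tested members and lower at none, against 1.22% and 1.44% of all genes, and 7 lay over 2-fold above all other arrays, against 3.41%. Beside S100A7 and S100A8 these were S100A12, a further calgranulin, which read 2.27 and 1.36 in HSC-3 and between -5.38 and -3.46 elsewhere (at least 37.9-fold higher, adjusted p = 0.0235), and TGM1, the transglutaminase that cross-links the cornified envelope. TGM1 read 1.14 and 2.86 in HSC-3, while KON gave -2.38 and -0.88 and Ca9-22 gave -1.61 and -0.23 (3.28 ± 0.36, adjusted p = 0.0330). The calls of S100A7, S100A8 and S100A12 passed the filter on dim probes only through HSC-3, and TGM1 was the only call of the list that did not. S100A9, the partner of S100A8, read 6.29 and 5.11 in HSC-3, against 0.12 and -1.37 for KON and -5.59 and -4.67 for Ca9-22. It lay above both lines on both siRNAs but did not pass the test (adjusted p = 0.0920), since KON and Ca9-22 were far apart.

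The kallikrein proteases KLK5 and KLK8, which act in shedding of surface cells, also lay over 2-fold above without a call, at differences of 7.01 and 4.51 (adjusted p = 0.166 and 0.337). Of the 28 members 22 had a positive difference, 15 were over 2-fold up by the difference and 3 over 2-fold down, the latter being SBSN, SPRR2A and SPRR3. Over all 14211 genes 54.1% were positive, 2179 were over 2-fold up and 2061 over 2-fold down. Of the structural genes of the envelope, IVL had a difference of 0.66, SPRR1B 0.64, SPRR2A -1.80, SPRR3 -1.47 and SBSN -2.18, none called. KRT10, KLK6 and CSTA, the other members of highest level, had differences of 0.31, 0.06 and 1.04. The median of the list was 1.09. KRT1, KRT2, CRNN, TGM3, CDSN and RHCG were on the array but well above background on at most 1 array, so they were not tested.

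Mesenchymal genes were called in both directions in HSC-3. Of 28 tested, 3 were called higher and 3 lower, against 1.22% and 1.44% of all genes, and 5 lay over 2-fold above and 5 below all other arrays, against 3.41% and 3.48%. The list median was 0.08 on siCtrl and 1.18 on siDLEU1-2. SPARC was one of those called higher. SPARC and TWIST2 entered the test only through HSC-3, and ZEB1 and CCN2, described below, only through the other lines. Those calls lend no support, which leaves VIM and TAGLN. VIM, the intermediate filament of mesenchymal cells, read 4.07 and 4.32 in HSC-3 but -0.20 and -0.41 in the KON arrays and -2.05 and -1.36 in the Ca9-22 arrays (5.20 ± 0.62, adjusted p = 0.0371). TWIST2, a basic helix-loop-helix repressor, read 0.35 and -0.49 in HSC-3 and between -6.02 and -5.44 elsewhere (at least 11-fold higher, adjusted p = 0.0145). All arrays but those of HSC-3 were below the background limit for TWIST2.

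ZEB1, a zinc finger repressor of epithelial genes, ran the opposite way. It read -5.56 and -5.59 in HSC-3, while KON gave -0.90 and -1.40 and Ca9-22 gave -1.51 and -1.50, at least 4.78-fold lower (adjusted p = 0.0150). CCN2, a matricellular protein also called CTGF, read -4.69 and -3.60 in HSC-3 and between -1.51 and 0.60 elsewhere (at least 8.35-fold lower, adjusted p = 0.0494, and 0.0683 at the background limit, where the call was lost). TAGLN, an actin-binding protein of contractile cells, read -1.64 and -0.12 in HSC-3, against 3.91 and 3.89 for KON and 2.33 and 4.81 for Ca9-22 (-4.61 ± 0.56, adjusted p = 0.0380). CDH2 (N-cadherin) and SNAI1 lay over 2-fold below all other arrays without a call, at differences of -5.89 and -3.53 (adjusted p = 0.0661 and 0.0567). FAP and WNT5B lay over 2-fold above without a call, at 5.60 and 4.48. TGFBI, CCN1, CAV1 and MSN, of highest level in the list, had differences of 0.95, -0.17, -0.07 and 1.67. CDH1 (E-cadherin), of the junction list and named after its values were seen, differed by 0.16 (adjusted p = 0.740).

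Of 25 matrix proteases and their inhibitors, HSC-3 was called higher at PLAT, the tissue plasminogen activator, which read 5.35 and 6.34 in HSC-3 but 1.58 and 2.01 in the KON arrays and 1.23 and 2.50 in the Ca9-22 arrays (4.02 ± 0.28, adjusted p = 0.0152). That was 1 call of 25, where 1.22% of all genes were called higher, and 4 members lay over 2-fold above and 1 below, where 3.41% and 3.48% of all genes did. MMP3 (stromelysin-1), SERPINA1 and PLAU, the urokinase gene, lay over 2-fold above without a call. MMP3 read 2.37 and 4.70 in HSC-3, while KON gave -5.12 and -4.40 and Ca9-22 gave -3.06 and -1.31 (adjusted p = 0.0556). PLAU read 9.0 and 9.06 in HSC-3, against 7.72 and 7.72 for KON and 0.20 and 1.30 for Ca9-22 (adjusted p = 0.363). Here the gap was set by KON alone, and most of the difference by Ca9-22. ADAM19 lay over 2-fold below (-4.73, adjusted p = 0.0929), and TIMP2, SERPINB5 and MMP1 had differences of 1.08, -0.87 and 1.09.

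In 32 laminins, integrins and matrix genes, HSC-3 was called higher at 3 and lower at 2, against 1.22% and 1.44% of all genes, the latter being the collagen IV pair. LAMC1, the laminin gamma1 chain, read 4.49 and 5.31 in HSC-3 but 2.51 and 3.07 in the KON arrays and 2.19 and 2.92 in the Ca9-22 arrays (2.23 ± 0.24, adjusted p = 0.0324). ITGA3, the integrin alpha3 chain that binds laminin, read 5.01 and 4.81 in HSC-3 and between 2.31 and 3.11 elsewhere (2.16 ± 0.31, adjusted p = 0.0491). COL13A1, a transmembrane collagen, was at least 9.94-fold higher (adjusted p = 0.0489). The laminin chains LAMA5, LAMA3 and LAMB1 had differences of -0.40, 1.35 and 0.97 and were not called. Basement membrane genes were thus high, low or not called according to the chain.

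**Figure D3:**
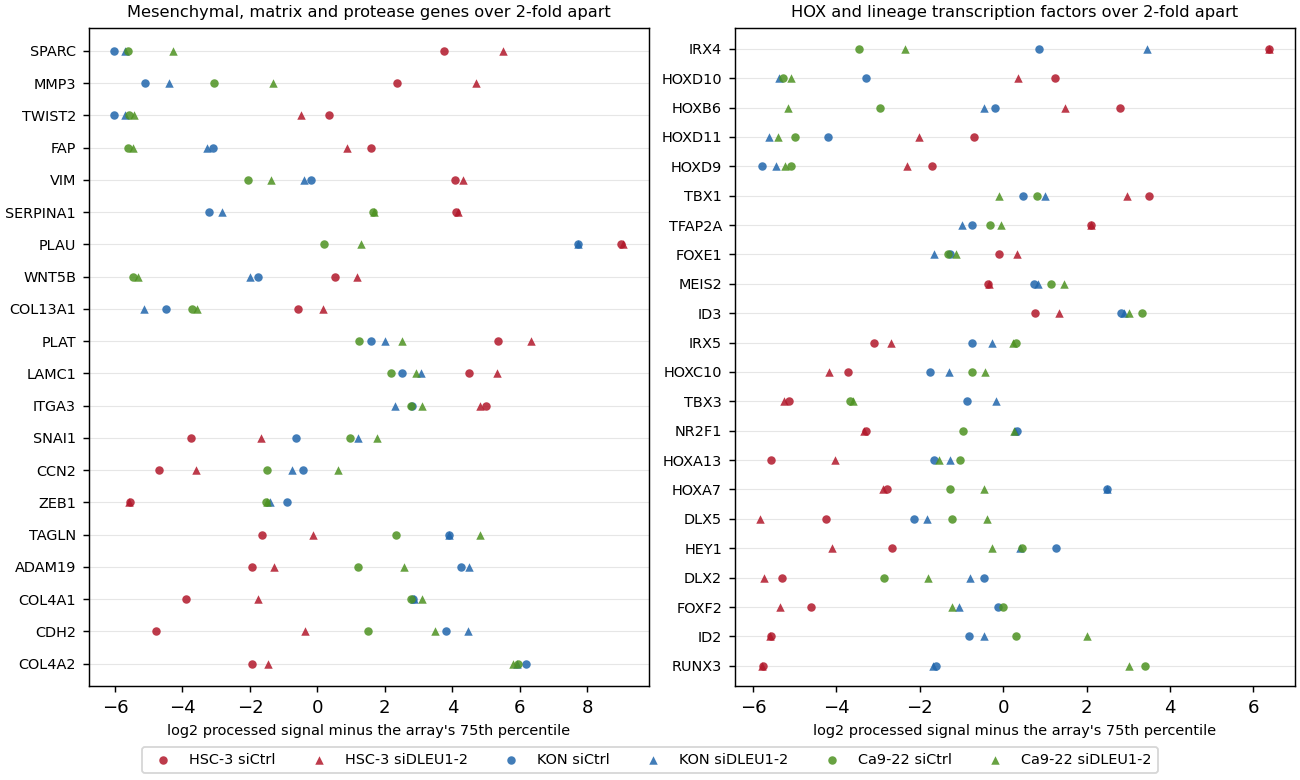
Level on each of the 6 arrays of mesenchymal, matrix and protease genes (left) and of HOX and lineage transcription factor genes (right) that lay over 2-fold above or below all other arrays in HSC-3, as log2 processed signal minus the 75th percentile of the array; colours mark the line, circles siCtrl and triangles siDLEU1-2. SPARC, TWIST2, VIM and HOXD10 have the red HSC-3 points at the right, while ZEB1, COL4A1, COL4A2, FOXF2 and ID2 have them at the left.

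By the median difference to KON and Ca9-22 together, interferon-induced genes were the most shifted of the lists reported. Against KON alone the cancer-testis list was shifted further, with a median of -3.62. Of 41 tested, 40 had a positive difference, against 54.1% of all genes, and the median was 2.30. HSC-3 lay above the mean of both other lines at 39 of the 41 genes, against 37.9% of all genes. The median was 2.12 on siCtrl and 2.64 on siDLEU1-2, and it was 2.92 against KON and 1.94 against Ca9-22. Of its members 2 were called higher, against 1.22% of all genes, and 15 lay over 2-fold above all other arrays, against 3.41%. The genes of this list respond together to one signal, so they are not independent of each other.

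IFITM3, a membrane protein that blocks virus entry, read 9.79 and 9.84 in HSC-3, while KON gave 6.93 and 7.20 and Ca9-22 gave 7.50 and 7.21 (2.60 ± 0.27, adjusted p = 0.0301). MX2, a dynamin-like antiviral GTPase, read 4.99 and 3.53 in HSC-3, against -1.65 and -1.95 for KON and 0.43 and -4.02 for Ca9-22 (6.05 ± 0.88, adjusted p = 0.0487). Both were the called members. Those over 2-fold above without a call included IFITM1, ISG15, the ubiquitin-like modifier, and MX1. IFITM1 read 9.16 and 9.01 in HSC-3 but 4.47 and 4.47 in the KON arrays and 3.85 and 1.26 in the Ca9-22 arrays (adjusted p = 0.0673). MX1 read 7.44 and 6.37 in HSC-3, while KON gave 2.91 and 2.31 and Ca9-22 gave 5.11 and 2.22 (adjusted p = 0.0703), and ISG15 had a difference of 2.37 (adjusted p = 0.0839). HSC-3 was highest on each siRNA, and Ca9-22 lay above KON for MX1 on siCtrl but not on siDLEU1-2.

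The transcription factor IRF7, the RNA sensor RIGI and the tetratricopeptide genes IFIT2 and IFIT3 also lay over 2-fold above, at differences of 3.04, 3.16, 3.19 and 3.08. The class I antigen genes differed less, with B2M at 0.23, HLA-F at 0.89 and HLA-B at 0.83, none called. GBP2, induced mainly by interferon gamma, was the one member without a positive difference.

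Inflammatory cytokines and chemokines were called higher at 3 of 33 tested members and lower at none, and 9 lay over 2-fold above, against 1.22% and 3.41% of all genes called higher and lying above. TNF read 2.87 and 2.84 in HSC-3, against -3.94 and -2.24 for KON and -5.39 and -2.02 for Ca9-22 (6.25 ± 0.75, adjusted p = 0.0371). CCL5, a T cell attractant, read 1.92 and 5.30 in HSC-3 but -3.44 and -3.42 in the KON arrays and -2.58 and -1.91 in the Ca9-22 arrays (6.45 ± 0.88, adjusted p = 0.0448). CCL2, a monocyte attractant, was dim in HSC-3 as well, at -2.02 and -2.43, and at least 2.46-fold higher than in the other lines, where it was not well above background (adjusted p = 0.0242, and 0.0899 at the background limit, where the call was lost). The neutrophil attractants CXCL1 and CXCL2 lay over 2-fold above without a call, at differences of 6.68 and 3.42 (adjusted p = 0.322 and 0.0974), as did NFKBIA, the feedback inhibitor of NF-kappaB (1.31, adjusted p = 0.0912). SOD2, IL1B and IL6 had differences of 2.20, 1.42 and -0.69. The median of the list was 1.37, made up of 0.44 against KON and 2.38 against Ca9-22.

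**Figure D4:**
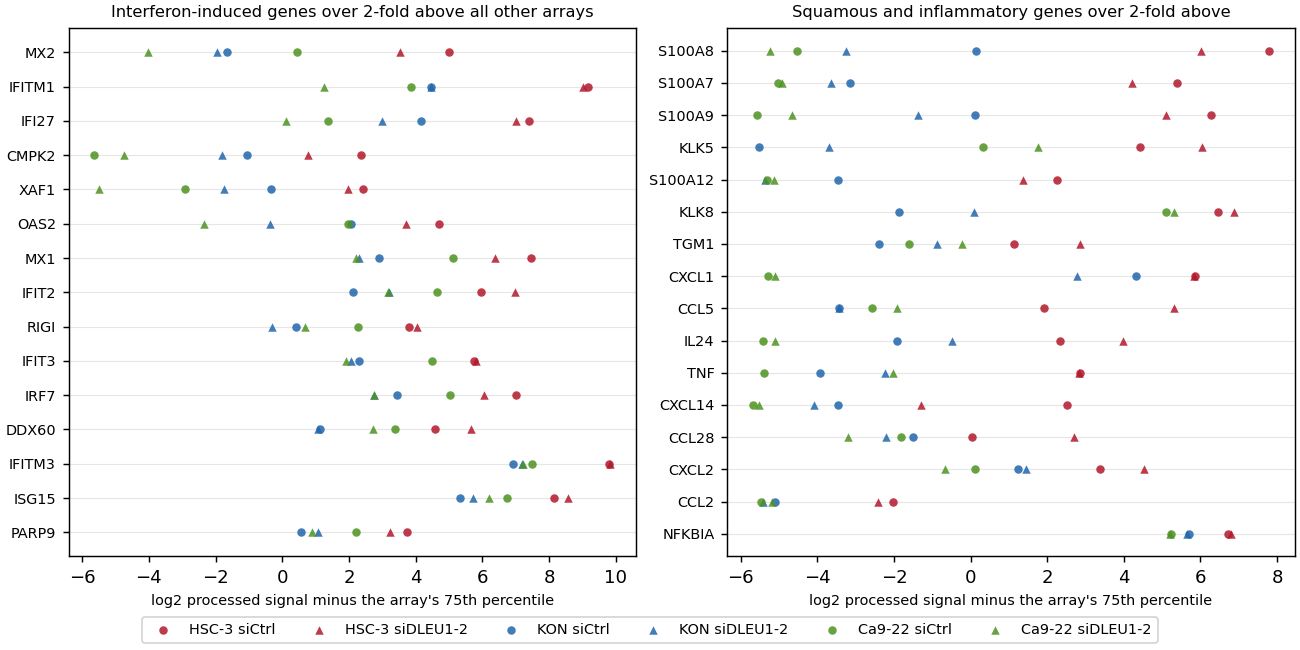
Level on each of the 6 arrays of interferon-induced genes (left) and of squamous and inflammatory genes (right) over 2-fold above all other arrays in HSC-3, as log2 processed signal minus the 75th percentile of the array; colours mark the line, circles siCtrl and triangles siDLEU1-2. The genes shown were selected for lying above, 15 of 41 on the left and 7 of 28 and 9 of 33 on the right, and the spread between KON and Ca9-22 is wide for KLK5, CXCL1 and XAF1.

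HSC-3 had no call among 44 growth factor receptors and ligands, where 1.22% of all genes were called higher and 1.44% lower. FGFR3, the amphiregulin gene AREG, FGFBP1, which releases fibroblast growth factors from the matrix, and IGFBP4 lay over 2-fold above all other arrays, at differences of 2.99, 2.41, 2.17 and 2.46 (adjusted p = 0.0819, 0.0757, 0.117 and 0.226), where 3.41% of all genes lay above. MET, VEGFC and IGFBP6 had differences of 0.43, 1.14 and 0.78. Among 31 genes of the NRF2 antioxidant response and aldo-keto reductases, none was called. GPX2, UGT1A6 and EPHX1, all detoxifying enzymes, lay over 2-fold below, at -4.23, -4.42 and -2.36 (adjusted p = 0.138, 0.202 and 0.133), where 3.48% of all genes lay below. The list median was -1.39 against KON and 0.59 against Ca9-22, which puts HSC-3 between them by the list median. TXN, TKT, TALDO1 and AKR1B1 had differences of 0.22, 0.44, 0.11 and -0.17.

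HOX genes, which keep a memory of position along the body axis, gave 3 calls higher and 1 lower of 26 tested, against 1.22% and 1.44% of all genes. All 3 higher genes lie in the HOXD cluster, and all passed the filter on dim probes only through HSC-3. HOXD10 read 1.23 and 0.37 in HSC-3, while KON gave -3.30 and -5.37 and Ca9-22 gave -5.27 and -5.10 (5.56 ± 0.60, adjusted p = 0.0318). Of these other arrays 1 was well above background, and at the background limit the difference was 4.19. HOXD11 was at least 4.48-fold higher in HSC-3 and HOXD9 at least 2.87-fold (adjusted p = 0.0249 and 0.0285). Both calls were lost at the background limit (adjusted p = 0.0761 and 0.0804), so they rest on readings below it. HOXA13 ran the other way, at -5.57 and -4.03 in HSC-3 and between -1.67 and -1.04 elsewhere (at least 4.61-fold lower, adjusted p = 0.0448). HOXB6 lay over 2-fold above and HOXA7 and HOXC10 over 2-fold below without a call, at differences of 4.33, -3.65 and -2.89. HOXA3, HOXC13, HOXC9 and HOXC6 had differences of 0.38, -0.36, -0.61 and 1.18.

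Among 64 transcription factors of epithelial lineages and their regulators, HSC-3 was called higher at 2 and lower at 6, against 1.22% and 1.44% of all genes, and 4 lay over 2-fold above and 11 below all other arrays, against 3.41% and 3.48%. TFAP2A, a regulator of ectoderm and keratinocyte genes, read 2.10 and 2.10 in HSC-3 and between -0.98 and -0.05 elsewhere (2.62 ± 0.36, adjusted p = 0.0458), while its second probe was not over 2-fold apart (1.74, adjusted p = 0.0806). TBX1, a T-box factor of the pharyngeal arches, read 3.50 and 2.97 in HSC-3 and at most 1.0 elsewhere (2.68 ± 0.40, adjusted p = 0.0496), and its second probe was over 2-fold apart without a call (2.62, adjusted p = 0.0674). IRX4 lay over 2-fold above without a call, at 6.38 and 6.38 in HSC-3, against 0.85 and 3.45 for KON and -3.46 and -2.36 for Ca9-22 (adjusted p = 0.155).

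Below the other lines, FOXF2, a forkhead factor, read -4.61 and -5.34 in HSC-3 and between -1.22 and 0.00 elsewhere, at least 7.92-fold lower (adjusted p = 0.0132). ID2, an inhibitor of basic helix-loop-helix factors, was below the background limit on both HSC-3 arrays, at least 14.4-fold lower (adjusted p = 0.0476, and 0.0824 at the background limit, where the call was lost). A second ID2 probe ran the same way and was not called (adjusted p = 0.0717). HEY1, a Notch target, read -2.67 and -4.11 in HSC-3 and between -0.26 and 1.27 elsewhere (-3.86 ± 0.39, adjusted p = 0.0294). NR2F1, IRX5 and PAX9 had differences of -3.30, -2.78 and -2.27 (adjusted p = 0.0448, 0.0478 and 0.0433), and of these PAX9, a factor of oral epithelium and teeth, was not over 2-fold apart from every array. RUNX3 lay over 2-fold below without a call (-6.55, adjusted p = 0.146), since Ca9-22 read 3.40 and 3.01 and KON -1.62 and -1.68. ID1, PITX1, IRX2 and NR3C1 had differences of -0.39, -0.04, 1.37 and 0.76. The median of the list was -0.66.

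Cell cycle regulators other than CCND2 mostly had lower values in HSC-3, with no call. Of 26 tested, 20 did not have a positive difference, where 54.1% of all genes had one, and the median was -0.86, against 0.09 over all genes, with -1.13 against KON and -0.62 against Ca9-22. CCND2 was the only call of the list, where 1.22% of all genes were called higher. CCNE1 (cyclin E1) read 0.44 and 0.49 in HSC-3 but 3.72 and 4.14 in the KON arrays and 2.76 and 2.99 in the Ca9-22 arrays (-2.94 ± 0.48, adjusted p = 0.0597), and MCM2, a subunit of the replicative helicase, differed by -1.50 (adjusted p = 0.0722). Both lay over 2-fold below all other arrays, where 3.48% of all genes did, without passing the test. PCNA, CCNB1 and CDK4 had differences of -0.60, -0.44 and -0.88.

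The remaining lists gave few calls in HSC-3. Of 13 tested genes of 9p21, MLLT3, a chromatin reader, was called higher (0.61 and 1.06 in HSC-3 and between -2.20 and -1.27 elsewhere, adjusted p = 0.0468), while a second MLLT3 probe was not called (difference 1.39, adjusted p = 0.0802). Of the 13, 12 had a positive difference, against 54.1% of all genes, 9 were over 2-fold up by the difference, against 2179 of 14211 genes, and the median was 1.36. MLLT3 was 1 call of 13, where 1.22% of all genes were called higher. CDKN2A, which encodes p16, read 6.15 and 6.14 in HSC-3, against -0.08 and 0.34 for KON and 5.78 and 5.56 for Ca9-22, so that HSC-3 lay with Ca9-22. FOCAD, KLHL9 and MTAP of 9p21 differed by 1.12, 0.52 and 0.02. Of 19 genes of 11q13, a region often amplified in this tumour, none was called, and FADD and NADSYN1 lay over 2-fold above, at 1.28 and 2.08, where 3.41% of all genes did. CTTN, DHCR7 and MRPL21 there had differences of 1.32, 1.25 and 0.39. Of 13 genes near EGFR at 7p11 none was called, LANCL2 lay over 2-fold below at -2.35 (adjusted p = 0.146), where 3.48% of all genes did, and CCT6A, SEC61G, VOPP1 and PSPH differed by -0.30, 0.27, 0.19 and -1.10.

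Cancer-testis antigens, germline genes turned on in tumours, were not called at any of 21 tested members, where 1.22% of all genes were called higher and 1.44% lower. HSC-3 read 3.22 and 3.23 for MAGEA4, against 0.94 and 1.03 in KON and -5.58 and -5.15 in Ca9-22 (adjusted p = 0.280). The list median was -3.62 against KON and 0.05 against Ca9-22. SPANXB1, CSAG1 and MAGEA1 had differences of -5.37, -3.83 and 2.71, each with KON above HSC-3 on both siRNAs, and the SPANX and MAGE families hold near-identical copies that a probe may not separate. Among 23 aldehyde dehydrogenases and drug metabolism genes none was called. CYP4F11 and GSTM1 lay over 2-fold below (adjusted p = 0.0806 and 0.277) and ALDH3B2 over 2-fold above (adjusted p = 0.114), where 3.48% and 3.41% of all genes did, while GSTP1, ALDH1A3, ALDH3A2 and ALDH7A1 had differences of -0.06, -2.31, 0.65 and 1.86.

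Markers of other cell types gave no call in HSC-3, where 1.22% of all genes were called higher and 1.44% lower. Of 14 immune markers 9 were tested, and the log2 of their summed level over all 14 was 6.04 and 6.32 in HSC-3 and between 3.23 and 3.77 elsewhere. CD14, a coreceptor for bacterial lipopolysaccharide, read 5.58 and 6.01 in HSC-3 but 0.39 and 0.90 in the KON arrays and -2.28 and -1.70 in the Ca9-22 arrays (adjusted p = 0.0608). LAPTM5 lay over 2-fold above as well (3.05, adjusted p = 0.192), where 3.41% of all genes did. CD14 made up most of the summed level in HSC-3. Of the 14 markers, 9 and 7 were well above background on the HSC-3 arrays, against 7 or 8 on the others. CD79A and CSF1R had differences of 0.44 and 0.84. PTPRC, the pan-leukocyte gene, read -4.30 and -2.78 in HSC-3 and between -5.62 and -2.80 elsewhere, and CD3E and CD163 were well above background on at most 1 array. The summed level of 12 fibroblast and muscle markers was 2.78 and 3.01 in HSC-3 and between 1.08 and 2.49 elsewhere. FAP, given above, was the one member over 2-fold apart, COL1A1, ACTA2 and DES differed by 0.14, 1.43 and 0.11, and COL3A1 was not well above background on any array.

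The summed level of 10 endothelial markers was -0.05 and 0.74 in HSC-3 and between -1.47 and 0.93 elsewhere, with 2 tested, VWF and CDH5, at differences of 0.67 and 1.56. For 11 melanocyte and nerve markers it was 4.04 and 3.08 in HSC-3 and between 3.02 and 4.27 elsewhere, with 4 tested and TUBB3, RBFOX3, PMEL and DCT at -0.06, 0.45, 0.41 and -0.48. The part of other cells in the inflammatory and mesenchymal results was not tested.

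**Figure D5:**
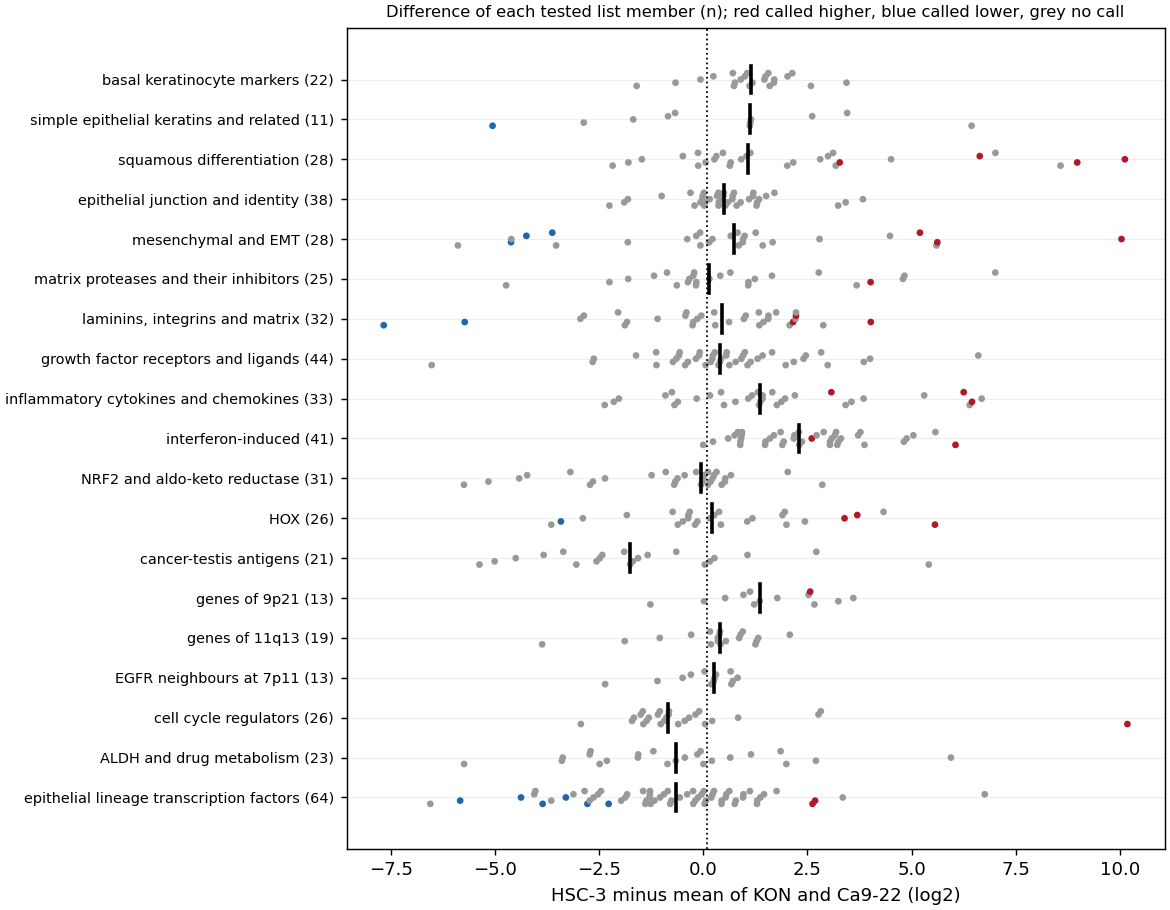
Difference of HSC-3 to the mean of KON and Ca9-22 (log2) for every tested member of each gene list, with the number tested in brackets; points are genes, red called higher, blue called lower and grey not called, the bar is the list median and the dotted line the median over all genes, 0.09. The interferon-induced points lie almost wholly to the right, with a median of 2.30, and the cancer-testis points mainly to the left, with a median of -1.75.

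Genes apart in HSC-3 were unevenly spread over the chromosomes. On chromosome 14, 32 of 459 genes (6.97%) lay over 2-fold above all other arrays and 12 (2.61%) below, with a median difference of 0.68 over all its tested genes. Chromosome 17 had 43 of 882 (4.88%) above and 8 (0.907%) below, and chromosome X 31 of 464 (6.68%) above and 14 (3.02%) below. The reverse held for chromosome 15, with 5 of 458 (1.09%) above and 31 (6.77%) below, for chromosome 16, with 9 of 641 (1.40%) above and 43 (6.71%) below, and for chromosome 18, with 3 of 193 (1.55%) above and 15 (7.77%) below. Their median differences were -0.44, -0.47 and -0.26. Over all genes the shares were 3.41% and 3.48%. These chromosomes were picked after the counts were seen, DNA copy number was not measured, and the counts are given as a description with no test.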

How the data were processed

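Total RNA of 3 OSCC lines with siCtrl or siDLEU1-2 was labelled with Cy3 and hybridised to 6 one-colour arrays, which the authors scanned and read with Agilent Feature Extraction 10.7 (10.7.3.1 in the file headers). The deposited values used here are the processed signal intensity of each spot, background-subtracted by that software, with no normalization between arrays stated; the deposited series table holds intensity values within 0.5% of these. Groups came from the sample labels. Control spots and outlier spots were left out, log2 intensity was averaged over the spots of a probe, and each array was centred on its 75th percentile. Of 50599 probes, 55 that lacked a usable spot on 1 array or more were dropped, and 24517 well above background on at least 2 arrays (at least 50% of a probe's spots on an array) were tested.

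limma 3.58.1 (R 4.3.3) fitted HSC-3 against the other lines with the siRNA as a term, with Benjamini-Hochberg adjustment over all probes tested, a threshold of 0.05 and 3 residual degrees of freedom. The interaction of HSC-3 and siRNA was fitted separately. The fit was also run on simulated data, whose outcome is not reported here. Over 2-fold apart means that every HSC-3 array lies over 1 (log2) above, or below, each other array. A gene stands by its tested probe of highest mean level; 20356 of 36337 gene names (56.0%) were found in the RefSeq gene table, and only those are counted as genes. Named are the 15 called genes with the widest gap in each direction that were well above background in the brighter group, called list members over 2-fold apart, and up to 4 list members of highest level; others named were chosen after their values were seen. Some genes that met these rules, and 1 gene list, are not reported here. The comparison, its members and the gene lists were chosen with earlier results of these data known. The samples are single cultures, and precision is limited by the number of arrays. Alternatives covered scaling, background correction, dim-probe filters, the model, and leaving out arrays or lines.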

Additional observations from a re-analysis of the deposited data

How the results depend on the processing

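The limma counts depended on the model. With the cell line as a term, so that the spread is that within lines, 4730 probes were called higher in HSC-3 and 4501 lower, among them all 632 of the main calls. With the line as a random block (within-line correlation 0.759) there were 0 and 0. With 1 array left out the counts ran from 0 to 0 in both directions, and where the lone HSC-3 array remained it was assumed to vary like the others; the counts over 2-fold apart then ran from 972 to 1566 above and from 1068 to 1570 below. Without KON the calls were 3272 higher and 2938 lower and the counts apart 2388 and 2369, and without Ca9-22 they were 3102, 3494, 2091 and 2534, where the counts apart have fewer arrays to pass and the cause for the calls was not tested.

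Filters also moved them. The calls were 152 higher and 184 lower with signal well above background on at least 1 array, 169 higher on at least 3, 168 and 161 on all 6, and 185 and 220 with no filter, with 413 above and 361 below on all 6. Normexp background correction gave 136 lower calls, 428 above and 319 below. A 3-fold limit gave 370 above and 479 below. The share of probes chosen on siCtrl that were kept on siDLEU1-2 was 67.9%, 69.9% after centring on the median, 61.9% with the filter of at least 1 array and 52.2% with none. The median difference over all genes ran from -0.06 to 0.22 over the scalings. Centring on the median gave 315 calls higher and 280 lower, and centring on probes detected on all arrays gave 265 and 434. None of 61 named genes (DLEU1 and 60 called ones) changed direction under an alternative in which it was tested, but the fold moved over 1.5 times for 53 of 61 under normexp, 39 with dim signals at the detection floor and 0 under quantile normalization. The printed bounds hold for the main background correction only: under normexp the difference was 2.63 for CHFR and -1.10 for ZEB1 (log2). Under quantile normalization 11 of 61 named genes were no longer called (S100A8, CCN2, ITGA3, MX2, HOXA13, MLLT3, TBX1, TFAP2A, IRX5, NR2F1 and ID2) and under normexp 18, and with any 1 array left out or the line as a random block all 60 called ones were not. Other alternatives lost 0 to 13, and stricter filters lost none of the 42 (at least 3 arrays) or 16 (all 6) still tested. Each line had 1 culture per siRNA. The siRNA, shared by all lines, was a term of the fit and so matched the arrays across lines, and the line was tried as a block as given above.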
